A study of Mus musculus with 9 samples.

Results

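The genes of the phagocyte NADPH oxidase, the enzyme that makes superoxide in white blood cells, were followed in 3 populations of mouse leukemia cells. The 5 genes were Cybb, Cyba, Ncf1, Ncf4 and Rac2, chosen by name from the 55536 genes of the table. All 5 passed the filter on low values, as did 13722 genes in all.

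The study examined how interleukin 34 (IL-34), a ligand of the receptor CSF1R, acts in acute myeloid leukemia driven by the fusion oncogene MLL-AF9. Lineage-negative cells of normal mice were given MLL-AF9 with GFP by a retrovirus and grew into leukemia in a first set of mice. The GFP+ leukemia cells of these mice then received a second retrovirus, either blank with BFP (MA9) or with IL-34 and BFP (MA9-IL-34). Per the labels, 100000 cells per mouse were given to C57BL/6J recipients aged 6 to 8 weeks that were not irradiated, and GFP+BFP+ cells were taken from the bone marrow at day 18. MA9 cells were divided by the surface receptor c-Kit, a marker of immature cells, into MA9-c-Kit- and MA9-c-Kit+. According to the labels, c-Kit+ cells were taken from MA9-IL-34 mice. The paper's methods list MA9-IL-34 cells as sorted and name no c-Kit gate for them. All groups therefore carried MLL-AF9, GFP and BFP, and expression was driven by retroviral vectors in the leukemia cells themselves. The MA9 and MA9-IL-34 lines came from separate infections, so IL-34 and any other difference between the lines cannot be told apart.

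Each group had 3 libraries, 9 in all, and levels are given in TPM (transcripts scaled to a fixed library total). The unit was inferred from near-equal library sums. True TPM is corrected for gene length, which was not checked here. Ratios, shares and ranks that set different genes side by side rest on that correction. The deposited values hold no read counts and the depth is unknown. Between 12577 and 12972 genes reached 1 TPM per library. The share of TPM on mitochondrial genes was 5.1% in MA9-c-Kit+ replicate 2 and between 8.79% and 11.1% in the others. The summed level of 6 erythroid markers was 2368 TPM in MA9-c-Kit- replicate 3 and between 2.39 and 50.8 TPM in the others. Of the 9 myeloid markers, none was at 0 in all libraries, and their summed level was between 11468 and 28622 TPM. Whether replicates are separate mice is not stated in the labels, and p-values then measure only the spread of these libraries, which may be technical. Differences are given as log2 fold changes of TPM + 1 with their standard error (SE) and a p adjusted over all tested genes (limma, Benjamini-Hochberg). In bulk samples, fewer cells of a type and less RNA per cell cannot be told apart.

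The oxidase carries electrons from NADPH across a membrane to oxygen, and the superoxide it makes is used by neutrophils and macrophages to kill microbes. Its membrane part, the flavocytochrome, pairs the catalytic subunit gp91phox, encoded by Cybb, with p22phox, encoded by Cyba, and each of these proteins stabilises the other. When the cell is activated, cytosolic subunits, among them p47phox (Ncf1) and p40phox (Ncf4), move to the membrane together with a Rac GTPase. Inherited loss of the subunits causes chronic granulomatous disease, in which phagocytes cannot clear many bacteria and fungi.

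The sequences around the start sites of Cybb, Cyba and Ncf1 are shown because Cybb and Cyba, the genes of the 2 membrane subunits, moved in opposite directions in MA9-IL-34 relative to MA9-c-Kit+ cells, while Ncf1 passed the test in no comparison. RefSeq gave windows for 3 of the 5 genes on GRCm38.p6. Each window has 250 bases before the start site and 30 from it, is written 5′ to 3′ on the gene's own strand, here the minus strand for all, and has the matches to the motifs searched in capitals. They lie at chrX:9469295-9469574 for Cybb, chr8:122432911-122433190 for Cyba and chr5:134229596-134229875 for Ncf1. The 2 annotations used here disagree for Cybb. Its RefSeq start, 9469324, lies inside the GENCODE M21 gene, which begins at 9487771 on this strand. Distances below are from the RefSeq start.
Cybb: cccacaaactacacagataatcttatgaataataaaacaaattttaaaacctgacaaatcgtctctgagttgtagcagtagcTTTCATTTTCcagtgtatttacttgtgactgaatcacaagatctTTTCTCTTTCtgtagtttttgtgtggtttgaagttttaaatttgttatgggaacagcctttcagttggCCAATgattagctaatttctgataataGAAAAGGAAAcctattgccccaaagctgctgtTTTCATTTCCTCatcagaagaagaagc
Cyba: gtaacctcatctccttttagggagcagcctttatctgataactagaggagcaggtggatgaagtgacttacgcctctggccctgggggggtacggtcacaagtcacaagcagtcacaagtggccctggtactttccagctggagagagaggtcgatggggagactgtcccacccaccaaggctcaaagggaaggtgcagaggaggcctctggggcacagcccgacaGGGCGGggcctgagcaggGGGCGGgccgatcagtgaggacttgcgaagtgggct
Ncf1: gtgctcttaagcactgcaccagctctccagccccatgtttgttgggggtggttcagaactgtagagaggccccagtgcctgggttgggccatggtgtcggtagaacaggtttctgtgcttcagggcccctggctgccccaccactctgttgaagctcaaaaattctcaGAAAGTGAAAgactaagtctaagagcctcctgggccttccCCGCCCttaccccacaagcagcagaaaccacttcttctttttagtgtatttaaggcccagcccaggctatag
The GC content was 34.3% for Cybb, 60% for Cyba and 53.9% for Ncf1, and the median over the 32851 RefSeq windows was 52.5%. Motifs were searched on both strands. The letters GAAA, any 2 bases and GAAA again, a sequence of the kind bound by interferon regulatory factors (IRF), were found in the Cybb window 3 times, at 168, 124 and 29 bases before the start, and in the Ncf1 window once, at 82 bases. They occurred in 3.28% of all windows and not in that of Cyba. The composite of an ETS and an IRF sequence, GGAA, any 2 bases and GAAA, was found once in the Cybb window, just after the start, and in 2.55% of all windows. The ETS core GAGGAA, of the kind bound by PU.1, overlapped this composite and occurred in 26% of all windows. CCAAT was found once in the Cybb window, at 56 bases before the start, and in 36.1% of all windows. GGGCGG, the GC box, was found in the Cyba window at 24 and 6 bases and in the Ncf1 window at 42 bases before the start, and in 34.7% of all windows. TTGCNNAA (10.4% of all windows) and TATAAA (13.1%) were in none of the 3 windows. These matches describe the letters of the windows and were not tested for binding.

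Cybb, the gene of the catalytic subunit, was high in MA9-c-Kit-, intermediate in MA9-c-Kit+ and lowest in MA9-IL-34 cells. Its level was 433, 359.6 and 382 TPM in the MA9-c-Kit- libraries, 73.3, 69.9 and 47.4 TPM in the MA9-c-Kit+ libraries and 3.49, 7.95 and 3.68 TPM in the MA9-IL-34 libraries (replicates 1, 2 and 3, as in all lists of 3 libraries here). The groups did not overlap, and the lowest library of each step was several times above the highest of the next. The means were 392 ± 37.7, 63.5 ± 14.1 and 5.04 ± 2.52 TPM (SD, n = 3 each), and all means are listed in this order of groups. Cybb was lower in MA9-IL-34 cells than in MA9-c-Kit+ cells, with a log2 fold change of -3.47 (SE 0.27, adjusted p = 5.63e-05, limma), 12.6-fold on the means. For MA9-c-Kit+ relative to MA9-c-Kit- cells the log2 fold change was -2.63 (SE 0.27, adjusted p = 0.000171, limma), 6.16-fold on the means. MA9-IL-34 cells were 77.7-fold below MA9-c-Kit- cells (log2 fold change -6.09, SE 0.27, adjusted p = 5.99e-07, limma). The 3 comparisons share libraries and are not independent of each other. On the level scale, Cybb stood above 97.6% of the tested genes in MA9-c-Kit-, above 83.1% in MA9-c-Kit+ and above 28.5% in MA9-IL-34 cells. The gene lies on chromosome X of GRCm38 from 9435252 to 9487771 on the minus strand (ENSMUSG00000015340, GENCODE M21), with up to 13 exons and no overlapping gene.

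The summed level of 6 markers of monocytes and macrophages was highest in MA9-c-Kit- and lowest in MA9-IL-34 libraries, as was Cybb, being 1124, 1052 and 867 TPM in MA9-c-Kit-, 283, 525 and 212 TPM in MA9-c-Kit+ and 136, 117 and 121 TPM in MA9-IL-34 libraries. None of the 6 was at 0 in all libraries. For MA9-IL-34 relative to MA9-c-Kit+ cells, Cd68 and Csf1r passed the test among the 6, both lower, and Csf1r did not pass without MA9-IL-34 replicate 1, 2 or 3 in turn (adjusted p up to 0.104, limma). The other markers did not pass, with Adgre1 at a log2 fold change of 1.38 (adjusted p = 0.188), Ccr2 at -0.15 (adjusted p = 0.734), Mertk at -0.17 (adjusted p = 0.868) and Cx3cr1 at -1.84 (adjusted p = 0.113), by limma, so that not every marker followed the order of Cybb. For MA9-c-Kit+ relative to MA9-c-Kit- cells, 4 of the 6 were lower (Adgre1, Ccr2, Csf1r and Mertk), and Adgre1 did not pass without MA9-c-Kit- replicate 1 or 2 or MA9-c-Kit+ replicate 1 or 3 (adjusted p up to 0.0933, limma). Of all tested genes, 9.15% were called lower in this comparison and 3.38% in MA9-IL-34 relative to MA9-c-Kit+ cells. Within groups, the marker sum and Cybb were both highest in MA9-c-Kit- replicate 1 and both lowest in MA9-c-Kit+ replicate 3. The sum was lowest in MA9-c-Kit- replicate 3 and Cybb in replicate 2. Among MA9-c-Kit+ libraries the sum was highest in replicate 2, where Cybb was at 69.9 TPM beside 73.3 TPM in replicate 1. Among MA9-IL-34 libraries the sum was highest in replicate 1 and Cybb in replicate 2. The part of these markers in the level of Cybb was not tested.

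Cyba, the gene of the other membrane subunit, did not follow Cybb. Its level was 532, 577 and 549 TPM in MA9-c-Kit-, 239, 360.4 and 239.99 TPM in MA9-c-Kit+ and 570.1, 557 and 557 TPM in MA9-IL-34 libraries. The MA9-c-Kit+ libraries lay below all others, and the MA9-c-Kit- and MA9-IL-34 libraries overlapped. The means were 553 ± 22.8, 280 ± 69.9 and 561 ± 7.81 TPM (SD, n = 3 each). Cyba was higher in MA9-IL-34 cells than in MA9-c-Kit+ cells, at a log2 fold change of 1.03 (SE 0.15, adjusted p = 0.00223, limma), and was lower in MA9-c-Kit+ than in MA9-c-Kit- cells by -1.01 (SE 0.15, adjusted p = 0.00119, limma). For MA9-IL-34 against MA9-c-Kit- cells the log2 fold change was 0.02 (SE 0.15, adjusted p = 0.918, limma). The gene lies on chromosome 8 from 122424776 to 122432930 on the minus strand (ENSMUSG00000006519), with up to 6 exons, and the predicted gene Gm20388 on the other strand overlaps it without sharing exonic bases.

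Both differences of Cyba were close to the minimum fold of 2 (a log2 value of 1 in either direction). Without MA9-c-Kit+ replicate 1 or 3 they were 0.93 and 0.93 against MA9-IL-34 and -0.91 and -0.91 against MA9-c-Kit- cells, without MA9-c-Kit- replicate 2 the latter was -0.98, and these no longer passed. Adjusted p for Cyba stayed at or under 0.0155 and 0.00819 under all alternatives (limma). MA9-c-Kit+ replicate 2, the library with the low mitochondrial share, had the highest Cyba of its group. Without it the log2 fold changes were 1.23 and -1.20.

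**Figure D1:**
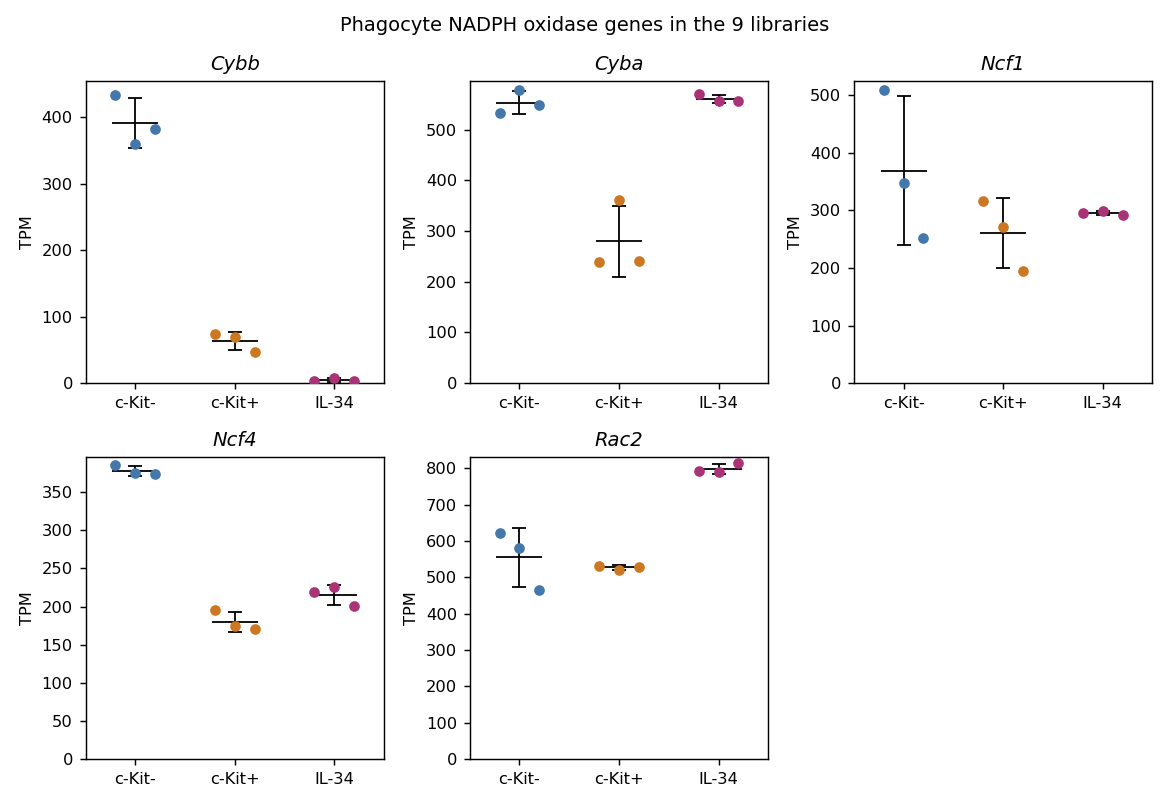
Each point is the level in TPM of 1 library for the 5 oxidase genes, with bars for the mean ± SD of 3 libraries per group. Cybb went from 392 to 63.5 to 5.04 TPM on average, whereas Cyba was at 553, 280 and 561 TPM and Rac2 was highest in MA9-IL-34 libraries.

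As the 2 membrane subunits form 1 complex, the level of Cybb was set against that of Cyba within each library. Cybb has 5808 exonic bases and Cyba 1039, so these percentages rest on a length correction that was not checked. Cybb was at 81.4%, 62.3% and 69.6% of Cyba in MA9-c-Kit-, at 30.7%, 19.4% and 19.8% in MA9-c-Kit+ and at 0.612%, 1.43% and 0.661% in MA9-IL-34 libraries. The groups did not overlap. The log2 ratio of TPM + 1 differed by -4.50 for MA9-IL-34 relative to MA9-c-Kit+, by -6.12 for MA9-IL-34 relative to MA9-c-Kit- and by -1.62 for MA9-c-Kit+ relative to MA9-c-Kit- cells. Each comparison gave p = 0.1 in an exact two-sided permutation test, the smallest that 3 against 3 libraries allow, so that p under 0.05 could not be reached. Of the summed TPM of Cybb, Cyba, Ncf1 and Ncf4, Cybb made up 21.7% to 24.6% in MA9-c-Kit-, 7.26% to 8.9% in MA9-c-Kit+ and 0.321% to 0.73% in MA9-IL-34 libraries. Cyba made up 28.6% to 41.1% in the MA9 libraries and 51.1% to 52.9% in MA9-IL-34 libraries. This sum was 1556 to 1860 TPM in MA9-c-Kit-, 653 to 876 TPM in MA9-c-Kit+ and 1053 to 1088 TPM in MA9-IL-34 libraries.

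**Figure D2:**
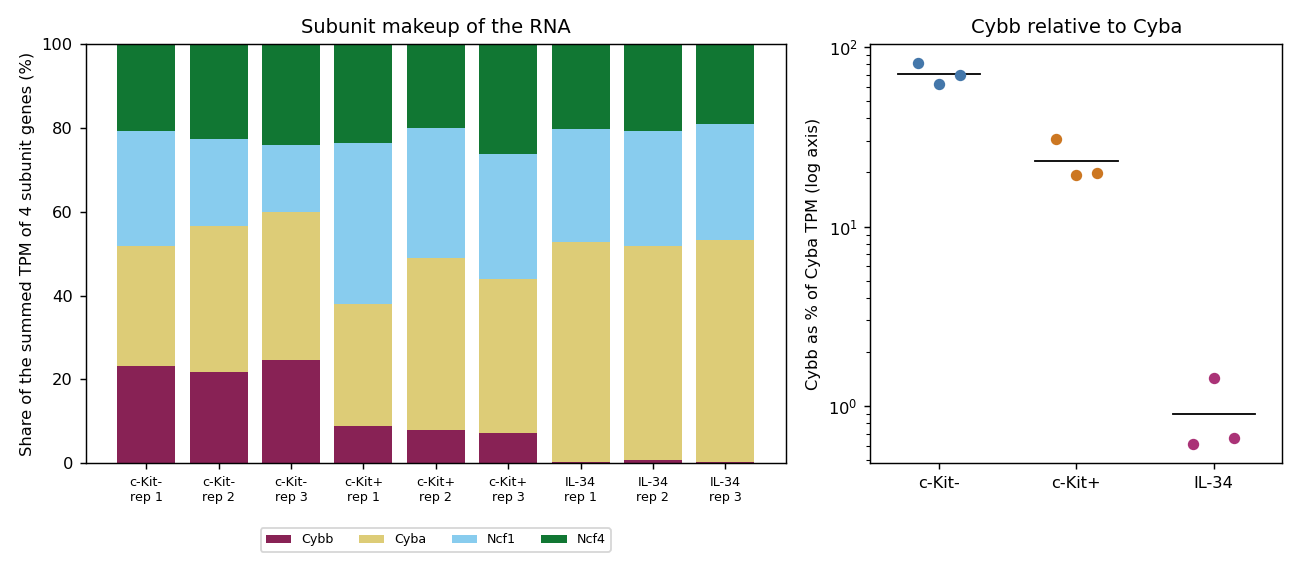
Left, the share in percent that each of 4 subunit genes has of their summed TPM, with 1 bar per library. Right, Cybb as a percent of Cyba on a log axis, with 1 point per library and a line at the group mean, which was 71.1%, 23.3% and 0.901%.

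Ncf1 encodes p47phox, the organizer that is phosphorylated on activation and docks to p22phox. Its level was 509, 347 and 251 TPM in MA9-c-Kit-, 316, 271 and 195 TPM in MA9-c-Kit+ and 295, 298 and 291 TPM in MA9-IL-34 libraries. The groups overlapped in all 3 comparisons, and the MA9-c-Kit- libraries were the most spread. The log2 fold changes were 0.20 (SE 0.25, adjusted p = 0.672) for MA9-IL-34 against MA9-c-Kit+, -0.26 (adjusted p = 0.406) against MA9-c-Kit- and -0.47 (adjusted p = 0.168) for MA9-c-Kit+ against MA9-c-Kit- cells, by limma. MA9-c-Kit- replicate 3, the library with high erythroid markers, had the lowest Ncf1 of its group. Without it the last value was -0.71 (adjusted p = 0.0349, limma), still under a fold of 2, and without MA9-c-Kit- replicate 1, the highest, it was -0.21 (adjusted p = 0.495, limma). With single libraries left out, the values in the 3 comparisons ranged from 0.011 to 0.357, from -0.509 to -0.001 and from -0.714 to -0.206. Ncf1 lies on chromosome 5 from 134220053 to 134229625 on the minus strand (ENSMUSG00000015950). Of its 3663 exonic bases, 408 are shared with Gtf2ird2 on the other strand. Gtf2ird2 was at 14.7 to 25.4 TPM, and whether reads were counted by strand is not given in the sources used here.

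Ncf4 encodes p40phox, which binds phosphatidylinositol 3-phosphate on phagosomes. Its level was 386, 375 and 374 TPM in MA9-c-Kit-, 195, 175 and 170.3 TPM in MA9-c-Kit+ and 219, 226 and 201 TPM in MA9-IL-34 libraries. No groups overlapped, and MA9-c-Kit+ and MA9-IL-34 libraries lay far below MA9-c-Kit- libraries. Ncf4 was lower in MA9-c-Kit+ than in MA9-c-Kit- cells with a log2 fold change of -1.07 (SE 0.09, adjusted p = 6.29e-05, limma), which became -0.89 with quantile normalization and then no longer reached a fold of 2. For MA9-IL-34 against MA9-c-Kit- cells the value was -0.81 (SE 0.09, adjusted p = 0.000116, limma), under the minimum fold. Against MA9-c-Kit+ cells it was 0.26 (SE 0.09, adjusted p = 0.103, limma). Ncf4 lies on chromosome 15 from 78244801 to 78262580 on the plus strand (ENSMUSG00000071715).

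Rac2 encodes the Rac GTPase of blood cells that switches the assembled oxidase on and also directs the actin skeleton. Its level was 621, 580.45 and 464 TPM in MA9-c-Kit-, 531, 519 and 529 TPM in MA9-c-Kit+ and 791, 789 and 814 TPM in MA9-IL-34 libraries. All MA9-IL-34 libraries lay above all others, and the MA9 groups overlapped. The log2 fold change of MA9-IL-34 cells was 0.60 against MA9-c-Kit+ (SE 0.11, adjusted p = 0.00837, limma) and 0.53 against MA9-c-Kit- cells (SE 0.11, adjusted p = 0.00413, limma). These are 1.52-fold and 1.44-fold on the means, so neither reached the minimum fold. For MA9-c-Kit+ relative to MA9-c-Kit- cells the value was -0.07 (adjusted p = 0.681, limma), and its sign turned with quantile normalization and without MA9-c-Kit- replicate 1. Without MA9-c-Kit- replicate 3, the lowest of its group, the value against MA9-c-Kit- cells was 0.41 (adjusted p = 0.00592, limma). Rac2 lies on chromosome 15 from 78559167 to 78572783 on the minus strand (ENSMUSG00000033220), 296586 bases from Ncf4.

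Markers of other cell types also differed between the groups. The summed level of 6 markers of eosinophils, basophils and mast cells was 176 to 248 TPM in MA9-IL-34 libraries, against 19.4 to 40.4 TPM in MA9-c-Kit- and 47.2 to 73.7 TPM in MA9-c-Kit+ libraries, so that it was highest in the same group as Rac2. Fcer1a among them was at 0 in all libraries. Of the 4 tested, 2 were higher in MA9-IL-34 relative to MA9-c-Kit+ cells, beside 3.86% of all tested genes. In MA9-IL-34 libraries the sum was mostly Siglecf. Mcpt8 and Epx had their highest mean in MA9-c-Kit+ cells instead. Mcpt8 was at 25.4 ± 8.69, 41.4 ± 21.4 and 29.1 ± 7.38 TPM, and Epx at 0, 0.617 and 0.173 TPM on average. Siglecf, an eosinophil receptor, was at 2.63 ± 1.47, 9 ± 6.82 and 149 ± 25 TPM in the 3 groups in this order (log2 fold change 4.18, SE 0.53, adjusted p = 0.00101, limma). Cpa3, a protease of mast cells, had 2.43 (adjusted p = 0.0459, limma), and its call was lost when any 1 library other than MA9-c-Kit+ replicate 2 was left out (adjusted p up to 0.166). The sum of 7 neutrophil markers was 165 to 216 TPM in MA9-c-Kit-, 4.39 to 52.6 TPM in MA9-c-Kit+ and 30.9 to 77.7 TPM in MA9-IL-34 libraries. In MA9-c-Kit- libraries this sum was mostly Mmp8, and the other markers did not share its order. Ngp rose in the order of the groups, at 2.74, 14.7 and 27.7 TPM on average, as did Ltf at 0.34, 1.35 and 1.95 TPM. Retnlg was highest in MA9-c-Kit- cells, at 2.48, 0.287 and 1.09 TPM, and Ly6g and Cxcr2 stayed under 1 TPM. Mmp8, a collagenase of neutrophils, was at 192 ± 26, 0.76 ± 0.0624 and 0.47 ± 0.425 TPM, and so lay far below MA9-c-Kit- in both c-Kit+ populations, whereas Camp, a granule peptide, was at 0.76 ± 0.477, 16.8 ± 13.3 and 19.7 ± 8.23 TPM. Among 6 markers of T and NK cells, Nkg7 was at 0.423 ± 0.271, 56.6 ± 26.9 and 182 ± 28.1 TPM. The T cell genes Cd3e, Cd3d, Cd3g and Cd8a were near 0. So was the NK cell gene Klrb1c, at 0.277 ± 0.135, 0.31 ± 0.178 and 0.05 ± 0.0361 TPM. It was lowest in MA9-IL-34 cells, where Nkg7 was highest. The part of these cell types in the levels of the 5 genes was not tested.

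**Figure D3:**
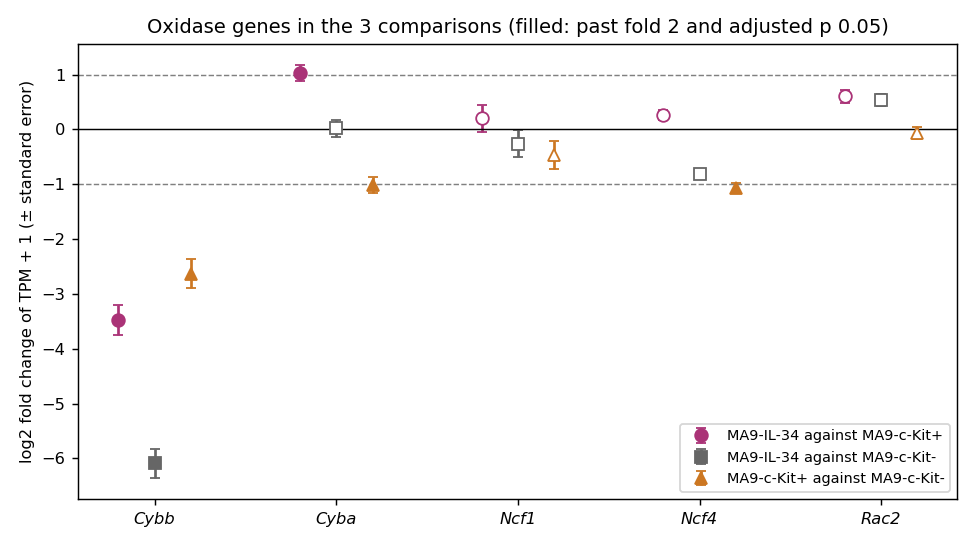
Points give the log2 fold change of TPM + 1 with its SE for 5 genes in 3 comparisons, filled where the fold was at least 2 and adjusted p under 0.05, with dashed lines at a fold of 2. Cybb lies between -2.63 and -6.09, and Cyba is the only one of the 5 that is filled above 0, at 1.03.

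Counted over the 5 genes, 1 was higher (Cyba) and 1 lower (Cybb) in MA9-IL-34 cells than in MA9-c-Kit+ cells, where 3.86% and 3.38% of all tested genes were called higher and lower. Against MA9-c-Kit- cells, none was higher and 1 was lower in MA9-IL-34 cells, beside 11.3% and 12.7% of all tested genes. In MA9-c-Kit+ against MA9-c-Kit- cells none was higher and 3 were lower (Cybb, Cyba and Ncf4), beside 5.66% and 9.15% of all tested genes. Some of the 5 had a higher or a lower level at an unadjusted p under 0.05 whatever the fold (limma). Those higher and lower were 3 and 1 for MA9-IL-34 relative to MA9-c-Kit+ cells. They were 1 (Rac2) and 2 for MA9-IL-34 relative to MA9-c-Kit-, and 0 and 3 for MA9-c-Kit+ relative to MA9-c-Kit- cells. The share of all tested genes at this unadjusted threshold was not counted, here or for the lists below. At an adjusted p under 0.05 whatever the fold (limma), 3 of the 5 differed in each comparison, beside 12.9%, 50.0% and 38.3% of all tested genes in the same order. The median log2 fold change of the 5 was 0.26, -0.26 and -1.01, and that of all tested genes 0.01, 0.06 and 0.03. Apart from Cybb, each of the 5 stood above 95.1% or more of the tested genes in every group.

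Across the 9 libraries, the log2 levels of Cybb and Cyba had a Pearson r of -0.0866 and those of Cybb and Rac2 of -0.79. These values describe 9 libraries in 3 groups, which share their group means. The tested genes nearest to Cybb by this measure were Xdh (r = 0.9969), which encodes xanthine dehydrogenase, Irf5 (r = 0.9962), a transcription factor of macrophages, and Ugt1a7c (r = 0.9932). Xdh was at 356 ± 68.3, 37.1 ± 8.68 and 1.43 ± 0.432 TPM and Irf5 at 365 ± 82.7, 46.3 ± 8.16 and 3.09 ± 0.584 TPM in the 3 groups in this order (SD, n = 3 each). Nearest to Cyba were Natd1 (r = 0.9673), Gm2a (r = 0.9662), which encodes the activator of ganglioside breakdown, and Rhog (r = 0.9638), a GTPase of the Rac group. Rhog was at 376 ± 20.4, 253 ± 18.1 and 360 ± 17 TPM, with the lowest mean in MA9-c-Kit+ cells as for Cyba. Nearest to Ncf1 were Gpr65 (r = 0.9762), Midn (r = 0.9689) and Zfp595 (r = 0.9612). Nearest to Ncf4 were Ppp1r15b (r = 0.9928), Trim24 (r = 0.9881) and Gm15931 (r = 0.987). Nearest to Rac2 were Sort1 (r = 0.9782), Cracr2a (r = 0.9724) and Rnf214 (r = 0.9722). Sort1, the sorting receptor sortilin, was at 69.9 ± 18.6, 66.4 ± 7.36 and 135 ± 8.16 TPM.

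Of 8 partners of the oxidase, all tested, none passed the test in MA9-IL-34 relative to MA9-c-Kit+ cells or in MA9-c-Kit+ relative to MA9-c-Kit- cells, and 1 (Hvcn1) was higher in MA9-IL-34 cells than in MA9-c-Kit- cells. At an unadjusted p under 0.05 whatever the fold (limma), 2 of the 8 had a higher level and 0 a lower level in the first of these comparisons, and 0 a higher and 5 a lower level in the second. Adjusted p was under 0.05 at any fold (limma) for 1 and 5 of the 8 in these 2 comparisons, beside 12.9% and 38.3% of all tested genes. Their median log2 fold changes were 0.21 and -0.44 there, and -0.35 for MA9-IL-34 relative to MA9-c-Kit- cells. Of all tested genes, 3.86% were called higher and 3.38% lower in MA9-IL-34 relative to MA9-c-Kit+ cells. The shares were 5.66% and 9.15% for MA9-c-Kit+ and 11.3% and 12.7% for MA9-IL-34 relative to MA9-c-Kit- cells. Of the 40-base stretches of the 5 oxidase genes, at most 4.45% (Cyba) also occur in other genes.

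Hvcn1 encodes the voltage-gated proton channel that balances the charge the oxidase moves. It was at 17.5, 19.8 and 3.66 TPM in MA9-c-Kit-, 39.96, 32.1 and 15.5 TPM in MA9-c-Kit+ and 44.6, 60.1 and 56.2 TPM in MA9-IL-34 libraries. The MA9-IL-34 libraries lay above all others. Relative to MA9-c-Kit- cells the log2 fold change was 2.16 (SE 0.54, adjusted p = 0.00956, limma), and 1.47 without MA9-c-Kit- replicate 3. Against MA9-c-Kit+ cells it was 0.94 (adjusted p = 0.323, limma). For MA9-c-Kit+ relative to MA9-c-Kit- cells it was 1.22 (adjusted p = 0.109, limma), from 0.524 without MA9-c-Kit- replicate 3 to 1.604 without MA9-c-Kit- replicate 2. With the replicate number as a block it was not called over all 9 libraries, and it was called in a fit of the MA9 groups alone that was added after seeing the data (adjusted p = 0.0149, limma).

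Cybc1, whose protein Eros is needed in mice for the flavocytochrome to mature, was at 97.5 ± 13.1, 81 ± 32.4 and 71.4 ± 1.28 TPM in the 3 groups in this order (SD, n = 3 each), with adjusted p from 0.148 to 0.825 over the comparisons (limma). Rac1, the widely expressed relative of Rac2, was at 416 ± 33.2, 277 ± 23.9 and 270 ± 8.77 TPM and did not reach the minimum fold in any comparison. Rac2 was at 1.34 ± 0.189 times the level of Rac1 in MA9-c-Kit-, 1.91 ± 0.187 times in MA9-c-Kit+ and 2.96 ± 0.124 times in MA9-IL-34 libraries, without overlap between the groups. Arhgdib, an inhibitor that holds small GTPases in the cytosol of blood cells, was at 1518 ± 56.4, 1267 ± 17.5 and 2390 ± 73.9 TPM. Its log2 fold change in MA9-IL-34 relative to MA9-c-Kit+ cells was 0.91 (SE 0.09, adjusted p = 0.000213, limma), under the minimum fold. Its widely expressed relative Arhgdia was at 750 ± 15.5, 513 ± 24.3 and 460 ± 6.44 TPM. Rap1a was at 68.3 ± 6.79, 42.9 ± 6.04 and 57 ± 4.37 TPM, Cdc42 at 457 ± 17, 289 ± 39 and 319 ± 20.5 TPM and Prdx6, a peroxiredoxin, at 152 ± 28.4, 186 ± 15.2 and 224 ± 13.7 TPM. None of these 3 reached the minimum fold.

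The genes of the other NADPH oxidases were near or at 0. Of 9 genes of other NADPH oxidases and their subunits, only Noxo1 passed the filter, at 1.04 to 2.98 TPM over the libraries, and it was called in no comparison. Nox1, Nox4, Duox2 and Duoxa2 were at 0.64 TPM or less in every library, Duox1 at 0.02 TPM or less, and Nox3, Noxa1 and Duoxa1 were listed at 0 in all.

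Receptors that trigger the oxidase in phagocytes were mostly lower outside MA9-c-Kit- cells. Of 14 tested of 15 listed, 11 were lower and none higher in MA9-c-Kit+ than in MA9-c-Kit- cells (median log2 fold change -2.18), and 8 were lower and none higher in MA9-IL-34 cells than in MA9-c-Kit- cells, with a median of -1.33. Of all tested genes, 5.66% were called higher and 9.15% lower in the former comparison, and 11.3% and 12.7% in the latter. At an unadjusted p under 0.05 (limma), 0 of the 14 had a higher level in either comparison, and 12 and 10 a lower level. Adjusted p was under 0.05 at any fold (limma) for 12 and 10 of the 14, beside 38.3% and 50.0% of all tested genes. Of the 11 calls, that of Fcgr4 was lost without MA9-c-Kit- replicate 1 or 3 or MA9-c-Kit+ replicate 2 or 3 (adjusted p up to 0.0712, limma), and Fcgr3 fell short of a fold of 2 without MA9-c-Kit- replicate 1 or MA9-c-Kit+ replicate 3 (-0.977 in the latter). Of the 8, that of Itgam was lost without MA9-c-Kit- replicate 1 or 3 or MA9-IL-34 replicate 2 or 3 (adjusted p up to 0.07, limma). The formyl peptide receptor gene Fpr2 was at 157, 96.4 and 107 TPM in MA9-c-Kit- and at 0.53 TPM or less in every other library (adjusted p = 8.94e-07 and 9.34e-08 for the comparisons with MA9-c-Kit+ and with MA9-IL-34, limma). Fpr1 was at 16.3, 9.78 and 20.8 TPM in MA9-c-Kit- and at 0.27 TPM or less in every other library. Itgb2, the common chain of the leukocyte integrins, was at 370 ± 32.8, 79.7 ± 12.3 and 161 ± 34.1 TPM, with a log2 fold change of -2.21 (SE 0.17, adjusted p = 3.61e-05, limma) in MA9-c-Kit+ against MA9-c-Kit- cells.

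For MA9-IL-34 relative to MA9-c-Kit+ cells, 2 of the 14 receptors were higher (Fcgr4 and Itgam) and 2 lower (Tlr2 and Clec7a), with a median log2 fold change of 0.35. Of all tested genes, 3.86% were called higher and 3.38% lower there. Tlr2, a sensor of bacterial lipoproteins, was at 69.9, 64.7 and 49.3 TPM in MA9-c-Kit-, 11.5, 8.98 and 13.5 TPM in MA9-c-Kit+ and 0.51, 0.8 and 0.36 TPM in MA9-IL-34 libraries. Its log2 fold change in MA9-IL-34 relative to MA9-c-Kit+ cells was -2.98 (SE 0.20, adjusted p = 2.51e-05, limma). Clec7a, which encodes the fungal sensor dectin-1, was at 339, 364 and 205 TPM in MA9-c-Kit-, 53.9, 137 and 36.8 TPM in MA9-c-Kit+ and 6.61, 5.19 and 3.68 TPM in MA9-IL-34 libraries (log2 fold change -3.45, SE 0.44, adjusted p = 0.000967, limma). Both genes fell at each step without overlap of the groups, as Cybb did. Fcgr4, a receptor for IgG, had a log2 fold change of 1.94 (adjusted p = 0.0146, limma) and did not pass without MA9-IL-34 replicate 1, 2 or 3 in turn (adjusted p up to 0.0632). Itgam, the CD11b integrin chain, had 1.60 (adjusted p = 0.0412, limma) and passed only without MA9-c-Kit+ replicate 2 among the 9 libraries left out in turn (adjusted p 0.00125 to 0.152).

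Of 16 transcription factors known to act on oxidase genes, all tested, 1 was lower and none higher in MA9-IL-34 cells than in MA9-c-Kit+ cells. That gene was Irf8, a factor needed for monocytes to form and known to act on Cybb. Of all tested genes, 3.86% were called higher and 3.38% lower in this comparison. At an unadjusted p under 0.05 whatever the fold (limma), 2 of the 16 had a higher and 3 a lower level. Adjusted p was under 0.05 at any fold (limma) for 2 of the 16, beside 12.9% of all tested genes. Irf8 was at 551, 628 and 434 TPM in MA9-c-Kit-, 203, 476 and 124 TPM in MA9-c-Kit+ and 8.05, 5.76 and 6.45 TPM in MA9-IL-34 libraries. The MA9-IL-34 libraries lay far below all others, and the MA9 groups overlapped. Its log2 fold change was -4.90 (SE 0.40, adjusted p = 8.25e-05, limma) against MA9-c-Kit+ and -6.11 (SE 0.40, adjusted p = 5.72e-06, limma) relative to MA9-c-Kit- cells. For MA9-c-Kit+ relative to MA9-c-Kit- cells it was -1.21 (adjusted p = 0.0413, limma) and did not pass when any 1 library other than MA9-c-Kit+ replicate 2 was left out (adjusted p up to 0.119).

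Spi1, which encodes PU.1, was at 633, 569 and 589.7 TPM in MA9-c-Kit-, 311, 268 and 291 TPM in MA9-c-Kit+ and 312, 335 and 357 TPM in MA9-IL-34 libraries. MA9-c-Kit- libraries lay above all others. The log2 fold change of Spi1 in MA9-c-Kit+ relative to MA9-c-Kit- cells was -1.04 (SE 0.10, adjusted p = 0.000103, limma) and fell short of a fold of 2 without MA9-c-Kit- replicate 1 (-0.996), without MA9-c-Kit+ replicate 2 (-0.98) and with quantile normalization (-0.92). For MA9-IL-34 relative to MA9-c-Kit+ cells it was 0.21 (adjusted p = 0.223, limma). In MA9-c-Kit+ against MA9-c-Kit- cells, 4 of the 16 factors were lower and none higher, where 9.15% and 5.66% of all tested genes were. These were Spi1, Irf8, Cebpb at 212 ± 148 TPM in MA9-c-Kit- and 39.6 ± 14.7 TPM in MA9-c-Kit+, and Irf2 at 72.1 ± 31.9 and 30.8 ± 9.57 TPM. The call of Irf2 was lost without MA9-c-Kit- replicate 1 (-0.83) or MA9-c-Kit+ replicate 3 (-0.88). In MA9-IL-34 against MA9-c-Kit- cells, 3 were lower (Irf8, Irf2 and Cebpb) and 1 was higher, beside 12.7% and 11.3% of all tested genes. The 1 higher factor was Cebpe, a factor of late granulocyte maturation, at 12.8 ± 9.47 TPM in MA9-c-Kit- and 119 ± 8.23 TPM in MA9-IL-34 (log2 fold change 3.36, SE 0.69, adjusted p = 0.00351, limma).

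**Figure D4:**
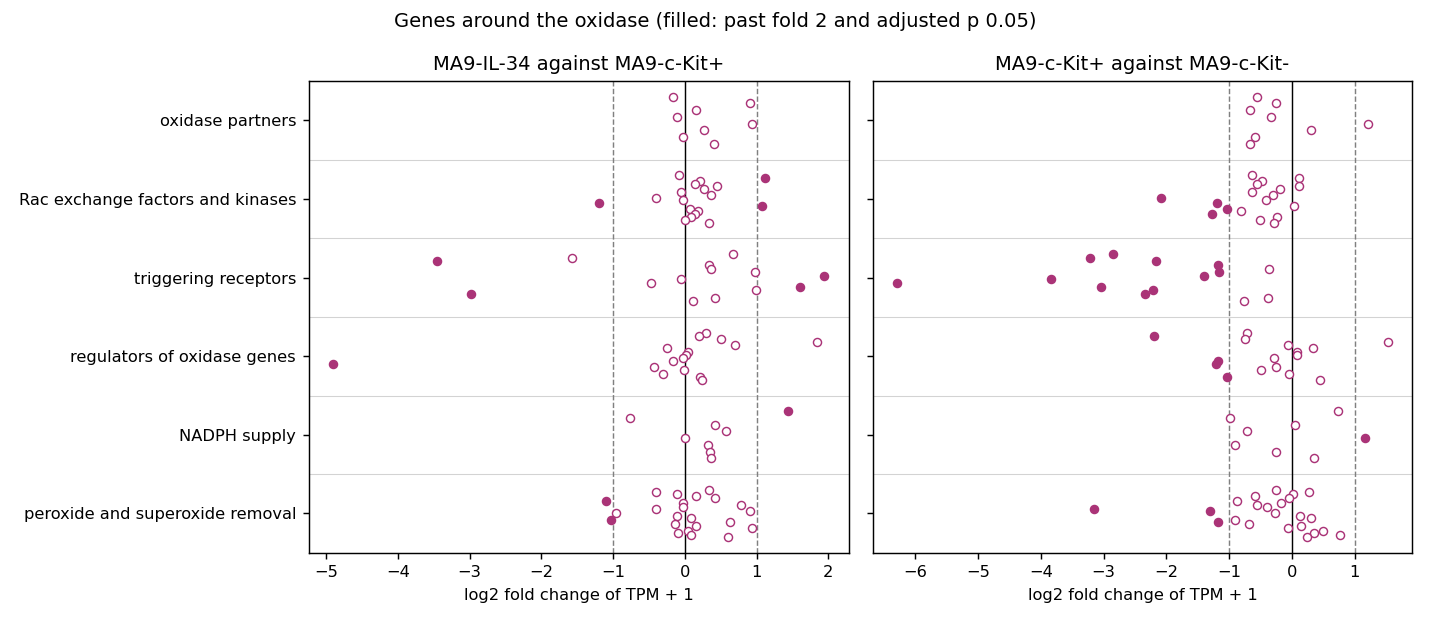
Each point is 1 tested gene of 6 lists around the oxidase, placed by its log2 fold change of TPM + 1 and filled where the fold was at least 2 and adjusted p under 0.05, with dashed lines at a fold of 2. On the left 1 regulator (Irf8, -4.90) is filled, and on the right 11 of 14 triggering receptors are filled below 0.

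Of 18 tested of 19 exchange factors and kinases that act on Rac and the oxidase, 2 were higher (Btk and Prkcb) and 1 lower (Prex1) in MA9-IL-34 cells than in MA9-c-Kit+ cells. Of all tested genes, 3.86% were called higher and 3.38% lower there. Prex1, an exchange factor for Rac2 in neutrophils, was at 127, 112 and 96.1 TPM in MA9-c-Kit-, 44.4, 59.8 and 41.1 TPM in MA9-c-Kit+ and 19.1, 19.7 and 22.2 TPM in MA9-IL-34 libraries (log2 fold change -1.20, SE 0.16, adjusted p = 0.0014, limma). It fell at each step without overlap. Btk, a kinase of B cells and myeloid cells, was at 67.7 ± 9.3, 73.7 ± 9.58 and 160 ± 14.7 TPM (log2 fold change 1.11, SE 0.14, adjusted p = 0.000863, limma). Prkcb, a kinase that phosphorylates p47phox, had a log2 fold change of 1.08 (adjusted p = 0.0161, limma), which was lost without MA9-c-Kit+ replicate 3 and without MA9-IL-34 replicate 1 or 3 (adjusted p up to 0.0706). In MA9-c-Kit+ against MA9-c-Kit- cells 4 of the 18 were lower and none higher, beside 9.15% and 5.66% of all tested genes. The 4 were Pik3r5, a subunit of the lipid kinase PI3K gamma, at 9.16 ± 2.25 against 42.4 ± 10.6 TPM, Prex1, Prkcd and Tiam1. At an unadjusted p under 0.05 (limma), 0 of the 18 had a higher level and 11 a lower level. Adjusted p was under 0.05 at any fold (limma) for 8 of the 18, beside 38.3% of all tested genes. The call of Prkcd (-1.03, adjusted p = 0.00617, limma) was lost without MA9-c-Kit- replicate 1 or MA9-c-Kit+ replicate 1 or 3 (-0.84 to -0.98), and that of Tiam1 without MA9-c-Kit- replicate 1 (adjusted p = 0.0504, limma) or MA9-c-Kit+ replicate 3 (-0.89). In MA9-IL-34 against MA9-c-Kit- cells 2 were higher (Btk and Prkcb) and 3 lower (Prex1, Pik3r5 and Tiam1), beside 11.3% and 12.7% of all tested genes. There the call of Prkcb was lost without MA9-c-Kit- replicate 3 (0.84), and that of Tiam1 without MA9-c-Kit- replicate 1 or 2 or MA9-IL-34 replicate 1 (adjusted p up to 0.0568, limma).

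NADPH, which feeds the oxidase, comes largely from the pentose phosphate pathway. G6pdx, the gene of its first enzyme, was at 206 ± 26.3, 105 ± 24.5 and 60.6 ± 4.85 TPM in the 3 groups in this order (SD, n = 3 each), without overlap between the groups. It passed the test for MA9-IL-34 against MA9-c-Kit- cells (log2 fold change -1.74, SE 0.17, adjusted p = 4.82e-05, limma) and had a value of -0.76 against MA9-c-Kit+ cells. Of 8 tested of 9 genes of NADPH supply, 1 was higher and none lower in MA9-IL-34 relative to MA9-c-Kit+ cells. This was Aldh1l1, a folate enzyme, at 7.22 ± 1.83 against 2.17 ± 1.15 TPM (adjusted p = 0.017, limma), and its call was lost without MA9-IL-34 replicate 1 or 3 (adjusted p up to 0.0813). The counts were 2 higher (Aldh1l1 and Mthfd1) and 1 lower (G6pdx) for MA9-IL-34 against MA9-c-Kit-, and 1 higher (Mthfd1) and none lower for MA9-c-Kit+ against MA9-c-Kit- cells. In these 3 comparisons in this order, 3.86%, 11.3% and 5.66% of all tested genes were called higher and 3.38%, 12.7% and 9.15% lower. The call of Mthfd1 for MA9-c-Kit+ against MA9-c-Kit- cells (1.17, adjusted p = 0.0187, limma) was lost without MA9-c-Kit- replicate 1 or 2 (0.83 and 1.08, adjusted p 0.0517 and 0.0621), and that for MA9-IL-34 against MA9-c-Kit- cells without MA9-c-Kit- replicate 1 (0.83).

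A list of 24 genes, 23 of them tested, held genes that remove superoxide and peroxides and genes of related defense, such as Hmox1 and Msrb1. None was higher and 2 were lower (Gpx3 and Prdx4) in MA9-IL-34 cells than in MA9-c-Kit+ cells. None was higher and 4 were lower (Hmox1, Gpx3, Prdx1 and Prdx4) in MA9-IL-34 cells than in MA9-c-Kit- cells. In MA9-c-Kit+ against MA9-c-Kit- cells, none was higher and 3 were lower (Hmox1, Msrb1 and Prdx5). In the same order, 3.86%, 11.3% and 5.66% of all tested genes were called higher and 3.38%, 12.7% and 9.15% lower. At an unadjusted p under 0.05 whatever the fold (limma), 6, 6 and 3 of the 23 had a higher level in these comparisons, and 4, 8 and 8 a lower level. Adjusted p was under 0.05 at any fold (limma) for 7, 12 and 10 of the 23, beside 12.9%, 50.0% and 38.3% of all tested genes. Hmox1, the stress-induced heme oxygenase, was at 123 ± 2.26, 12.9 ± 1.28 and 9.58 ± 1.67 TPM in the 3 groups in this order (log2 fold change of MA9-c-Kit+ against MA9-c-Kit- -3.16, SE 0.14, adjusted p = 2.12e-06, limma). Gpx3, a secreted glutathione peroxidase, was at 281 ± 84, 148 ± 7.19 and 69.1 ± 11.3 TPM, and its lower level in MA9-IL-34 relative to MA9-c-Kit+ cells (-1.10, SE 0.21, adjusted p = 0.00779, limma) was -0.96 and under the minimum fold without MA9-IL-34 replicate 1. The call of Prdx4 in that comparison (-1.03, adjusted p = 0.0284, limma) was lost without MA9-c-Kit+ replicate 2 or 3 or any MA9-IL-34 replicate (adjusted p up to 0.106). For MA9-c-Kit+ relative to MA9-c-Kit- cells, the call of Prdx5 was lost without MA9-c-Kit+ replicate 3 (-0.96).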

How the data were processed

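The authors deposited 1 table with TPM values for each library, made from total RNA with a TruSeq kit. Its header gives no unit; the values were read as TPM from their near-equal sums. The methods name a microarray and the Majorbio Cloud Platform. The aligner, annotation and build are not given in the sources used here. The minus sign is missing from the column of MA9-c-Kit- replicate 3, which was assigned by its number, the other groups having a replicate 3 already. Columns of no sample: 0.

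The 13722 genes that reached 1 TPM in 3 or more libraries were fitted as log2(TPM + 1), which understates the fold changes of low genes, with limma 3.58.1 (R 4.3.3), 3 group means over all 9 libraries and a trended prior. P-values were adjusted by Benjamini-Hochberg over all tested genes, and a gene was called at a 2-fold or larger change with adjusted p under 0.05, the thresholds of the study. The procedure was tested on simulated data. The 5 genes, the gene lists and the tests were chosen with earlier results of these data known. Some genes are not reported here and were left out of the lists and sums. Named genes were the 5, all partners, for each list and comparison up to 3 called genes of smallest p, the 3 nearest genes of each of the 5, and markers. Other genes were named after their values were seen, namely the remaining called genes where a count is 5 or fewer, Fcgr3, the untested oxidases and Gtf2ird2.

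Coordinates come from GENCODE M21 (GRCm38) by Ensembl identifier (55450 matched, 86 not), promoters from RefSeq (GRCm38.p6). Libraries of the same number in the 2 MA9 groups deviated together from their group means (correlations 0.202, 0.239 and 0.443). Pairs of unlike number in these groups ranged from -0.324 to 0.159. The main fit used no pairing, and blocking on the replicate number was among the alternatives. MA9-IL-34 libraries shared only a number (-0.279 to -0.000871). The other alternatives were no filter, a filter at 5 TPM, pseudocounts of 0.1 and 0.5, only the groups compared, quantile normalization, a median shift, TPM without mitochondrial genes, no trend, a robust prior, no minimum fold and each library left out.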

Additional observations from a re-analysis of the deposited data

How the results depend on the processing

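Cybb passed the test in all 3 comparisons under every alternative, and Ncf1 in none. The calls of Cyba (in 2 comparisons) and Ncf4 (in 1) lay close to the minimum fold of 2. With quantile normalization, Cyba was at 0.921 (MA9-IL-34 against MA9-c-Kit+) and -0.882 (MA9-c-Kit+ against MA9-c-Kit-), Ncf4 at -0.886 and Rac2 at 0.029 in the latter comparison, and 1 of the 5 genes was called in each. With a median shift, Cyba was at 0.992 and -0.982 and 1 of the 5 was called in the former comparison. The cause was not tested. Scaling moved the median of all genes by less than 0.1. Without a minimum fold, the calls were 1772, 6864 and 5252 genes, and Rac2 (0.599 and 0.533) and Ncf4 (-0.812 against MA9-c-Kit-) passed, which made 3 of the 5 for MA9-IL-34 against MA9-c-Kit- cells; this follows from the rule itself.

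With single libraries left out, Cyba ranged from 0.93 to 1.23, from -0.005 to 0.054 and from -1.20 to -0.91 in the 3 comparisons, Rac2 between the MA9 groups from -0.19 to 0.02, the genes called for MA9-IL-34 relative to MA9-c-Kit+ from 633 (without MA9-IL-34 replicate 3) to 1130, and the called of the 5 genes from 1 to 2. Without MA9-c-Kit- replicate 1, Cyba was -0.005 and Rac2 0.020. Without MA9-c-Kit+ replicate 2, Cybc1 (0.193, lowest -0.328) and Rac1 (0.027, lowest -0.097) turned sign in MA9-IL-34 relative to MA9-c-Kit+ cells, neither being called.

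With the replicate number as a block, 2, 1 and 3 of the 5 genes were called as without it, Cybb was at -3.468 (adjusted p = 0.000262, limma) in MA9-IL-34 relative to MA9-c-Kit+ cells, and no call of the 5 changed. In the fit of the MA9 groups alone with the block, added after seeing the data, Cyba had adjusted p = 0.0056 and Ncf1 0.0289 at -0.467 (limma), and Hvcn1 passed. For the other named genes, 2124 of 2240 values kept their direction and side of the threshold, 102 lost a call, 12 gained one and 2 turned sign. The unknown depth leaves the error of low levels, such as Cybb in MA9-IL-34 libraries, unmeasured apart from the replicate spread.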
